A study of Homo sapiens with 46 samples.

Results

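The genes described are those of the cytosolic ribosomal proteins, the protein components of the ribosome outside mitochondria. They were chosen by name: every protein-coding gene of the count table whose symbol is RPL or RPS with a number (with or without a final A, X or L), together with RPLP0, RPLP1, RPLP2 and RPSA, which gave 81 of 62756 genes. Pseudogenes and genes of the mitochondrial ribosome were left out. By role the 81 were 43 large subunit proteins, 31 small subunit proteins, the 3 stalk proteins and 4 paralogs (RPL3L, RPL10L, RPL39L and RPS27L).

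RNA was measured in 46 libraries of DLD-1, an adherent human colorectal adenocarcinoma cell line. The parental line (wild type, no tag) was set beside 3 lines made from it, in which endogenous Lamin A/C (LAC), Lamin B1 (LB1) or Lamin B2 (LB2) carries an auxin-inducible degron at its N-terminus. Auxin was used at 1 mM from a solution in DMSO, and all 4 lines were sampled after 0, 16 and 96 h of it, so every group at 16 or 96 h, untagged cells included, shares the agent. Whether cells at 0 h were given DMSO is not stated in the sources used here, nor is it stated whether a tagged line is 1 clone. Of the 12 groups, 10 held 4 libraries, and LB1 at 0 h and LB2 at 96 h held 3. Replicates were single wells of 6-well plates, so the p-values below measure the spread between wells, which may be technical. A degron removes protein and need not alter the RNA of its target, and lamin protein was not analysed here.

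A ribosome has a small subunit, which reads the messenger RNA, and a large subunit, which joins amino acids, and most of the proteins are present in a single copy. Human messenger RNAs for these proteins typically begin with a C followed by a run of pyrimidines, the terminal oligopyrimidine (TOP) tract, through which mTOR signalling and LARP1 control their translation together. RPL5 and RPL11 also form, with 5S ribosomal RNA, a particle that can bind MDM2, and RPS6 is the classical substrate of the S6 kinases. In colorectal cancer cells ribosome production is a well known target of MYC.

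The sequences at the annotated start sites show this shared feature, and members in which the rule below did not find it. Windows around the annotated start (RefSeq, GRCh38.p14) were matched by symbol for 64 of the 81 genes. The 12 windows below hold 15 bases before and 15 bases after that start, 5′ to 3′ on the gene's strand, and capitals mark a run that begins with C, goes on with at least 4 further C or T and has its first base within 5 bases of the start. The first 9 are members with values given below, and the last 3 have no such run.
RPS12, chr6:132814554-132814583, + strand: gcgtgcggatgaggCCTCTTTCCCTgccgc
RPS6, chr9:19380222-19380251, - strand: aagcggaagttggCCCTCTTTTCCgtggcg
RPS24, chr10:78033848-78033877, + strand: cggcgaatcgtggttCTCTTTTCCTCCTTg
RPSA, chr3:39406705-39406734, + strand: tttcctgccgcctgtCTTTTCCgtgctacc
RPL28, chr19:55385917-55385946, + strand: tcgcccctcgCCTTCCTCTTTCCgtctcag
RPL35, chr9:124861943-124861972, - strand: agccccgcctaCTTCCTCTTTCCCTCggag
RPL39, chrX:119791616-119791645, - strand: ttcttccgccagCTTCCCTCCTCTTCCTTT
RPLP0, chr12:120201097-120201126, - strand: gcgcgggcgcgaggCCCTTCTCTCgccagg
RPLP2, chr11:809952-809981, + strand: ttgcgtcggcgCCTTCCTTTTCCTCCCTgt
RPS15, chr19:1438381-1438410, + strand: tgcgcaggcgcggaccaaagcgatctcttc
RPS27L, chr15:63157463-63157492, - strand: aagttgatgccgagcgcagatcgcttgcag
RPL10L, chr14:46651767-46651796, - strand: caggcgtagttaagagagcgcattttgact

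Such a run was present in 50 of the 64 windows (78.1%), against 5749 of 27305 RefSeq promoter windows (21.1%). Its median length was 11 bases, and the longest, in RPL39, was 22 bases and goes on past the printed window. The letters CTTTCC lay within 30 bases of the start on the sense strand in 19 of the 64 (29.7%) against 2.83% of all promoters. CTCTTTC, which overlaps CTTTCC where a further C follows, was found in the same span in 10 (15.6%) against 0.853%. CCGGAAG, the core of many ETS family sites, was present on either strand of the whole window (250 bases before to 50 after the start) in 22 (34.4%) against 10.7%, and AAGATGGC, the core of a YY1 site, in 6 (9.38%) against 3.03%. These matches describe letters only.

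Library totals ran from 479446 to 37309421 counts with a median of 11533218, and 6 libraries held under 5000000. The least deep, replicate 3 of LB2 at 16 h, stood apart: 6.07% of its counts lay in the members (95% Wilson interval 6.003 to 6.138%, counting error only) and 8.475% in mitochondrial genes (8.396 to 8.554%), the highest of the 46 libraries for both shares. The labelled cell type was checked against markers: all 8 epithelial markers had a median of at least 1 CPM (counts scaled to a common library size after TMM), with a sum of 5473 to 12579 per library, and the 5 leukocyte markers had a median of 0. Of the fibroblast and endothelial markers, COL1A2, COL3A1, DCN, LUM, PDGFRA and CDH5 also had a median of 0, whereas COL1A1 and 1 of 3 endothelial markers had a median of at least 1 CPM. The 6 fibroblast markers summed to 0 to 6.47 CPM per library and the 3 endothelial ones to 2.18 to 17.5, and COL1A1 was called lower in LAC at 96 h (-1.69, edgeR adjusted p = 0.0195).

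In these cells 78 of the 81 genes were expressed at a level that passed the low-count filter. The other 3 were the tissue-restricted paralogs. RPL3L, known from heart and skeletal muscle, had 96 counts in all libraries together, RPL39L, known from testis, had 13, and RPL10L, also of the testis, had 3. The fourth paralog, RPS27L, a p53 target related to RPS27, was measured at a mean of 18.3 CPM. No statement on change below covers RPL3L, RPL10L or RPL39L.

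Messenger RNA levels of the 77 members without the paralogs were far from equal. As CPM per kilobase of coding sequence, averaged over the 12 groups, the median was 868, and the highest level was 149-fold above the lowest. The lowest was RPL36A, whose level is uncertain as described below. The 90th percentile lay 5.93-fold above the 10th. RPS2, at the mRNA entry side of the small subunit, led with 3418, followed by the stalk base RPLP0 with 2642, RPL13A with 2366, RPSA, also known as the laminin receptor, with 2203, and RPS3 with 1984. On this scale the group means of RPS2 spanned 2798 to 4287 and those of RPLP0 1798 to 3019, so these neighbours overlap across groups. The median level was 1055 for small subunit genes, 690 for large subunit genes and 1083 for the stalk.

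The low end held genes that share their bases with another annotated gene. RPL36A (23 CPM per kilobase), RPS10 (23.3), RPL17 (118) and RPL26 (169) were among the lowest, and each had at least 30% of the transcript lying in another gene on the same strand, from 38.7% in RPL26 to 88.0% in RPS10. For RPL36A, RPS10 and RPL17 that other gene is a readthrough model (RPL36A-HNRNPH2, RPS10-NUDT3 and RPL17-C18orf32). How reads in shared bases were counted is not given in the sources used here, so the levels of these 4 are uncertain. The order also depends on which length is used. RPL41, whose coding sequence has 75 bases, ranked 8th per coding base but 57th per transcript base. The orders by coding and by transcript length correlated with Spearman's rho 0.709 over the 77 genes. The genes also have 1587 named pseudogenes. The members' levels per coding length had rho -0.172 with their number of named pseudogenes and 0.292 with GC content, over 77 genes that share the same libraries.

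**Figure D1:**
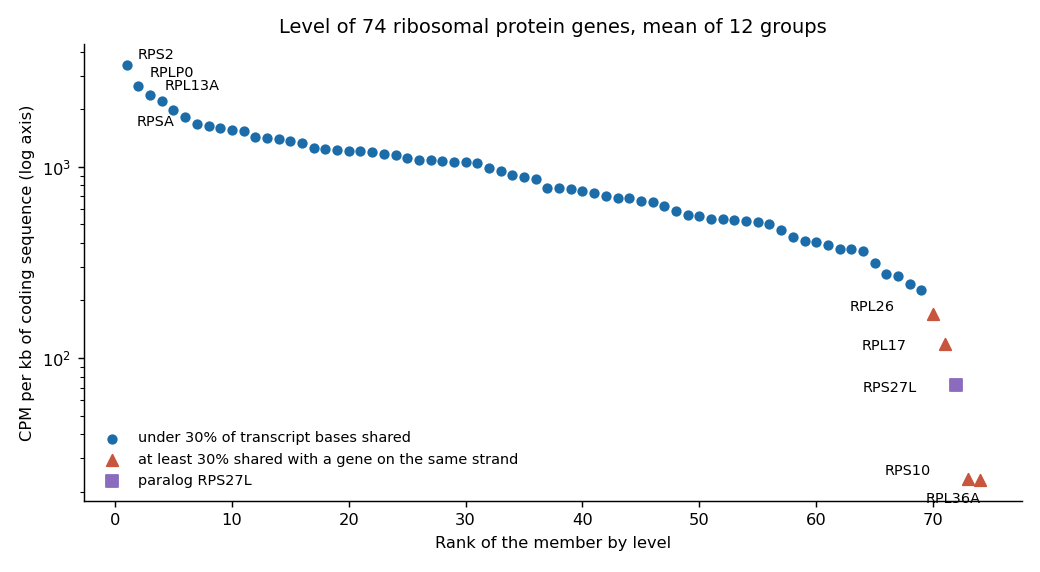
Level of 74 members (CPM per kilobase of coding sequence, mean of the 12 groups, log axis) in rank order; triangles are members with at least 30% of the transcript shared with another gene, and the square is RPS27L. RPS2 is at the top with 3418, and the triangles lie at the low end from 23 to 169.

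Together the members took 2.94 to 6.07% of a library's counts. At each time the group mean was lowest in parental cells, with 3.51 ± 0.407% at 0 h (SD, n = 4), 3.38 ± 0.23% at 16 h (n = 4) and 3.76 ± 0.335% at 96 h (n = 4). The 0 h share of LAC was 3.97 ± 0.307% (n = 4), that of LB1 4.31 ± 0.262% (n = 3) and that of LB2 4.50 ± 0.215% (n = 4). The 3 LB1 libraries and the 4 LB2 libraries lay between 4.02 and 4.76%, above the parental range of 2.97 to 3.96%, whereas LAC (3.78 to 4.43%) overlapped it. LB1 at 96 h had the highest group mean, 5.03 ± 0.119%, and its 4 libraries (4.87 to 5.16%) lay above every library except replicate 3 of LB2 at 16 h.

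The level of a typical member varied between wells of a group. In parental cells at 0 h the median log2 CPM of the members was 7.78 in replicate 2 and 8.23 to 8.51 in the other 3 libraries. In LB2 at 16 h it ran from 8.11 in replicate 1 to 9.26 in replicate 3. In LB1 at 96 h it stayed between 8.62 and 8.67. Some members also followed the replicate number, a pattern looked for after the values were seen. RPL23A, near the tunnel exit, had a median of 99.6 CPM in the 24 libraries numbered 1 or 2 and 159 in the 22 numbered 3 or 4, and in each of the 12 groups the latter were all above the former. Of 74 members examined, 6 showed this in at least 9 of the 12 groups (RPL3, RPL11, RPL23A, RPL39, RPL41 and RPS23), the median member showed it in 3, and RPL21 showed the opposite order in 9. LB1 at 0 h and LB2 at 96 h lack replicate 4. In bulk RNA a smaller number of cells of one kind and less RNA per cell cannot be told apart.

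**Figure D2:**
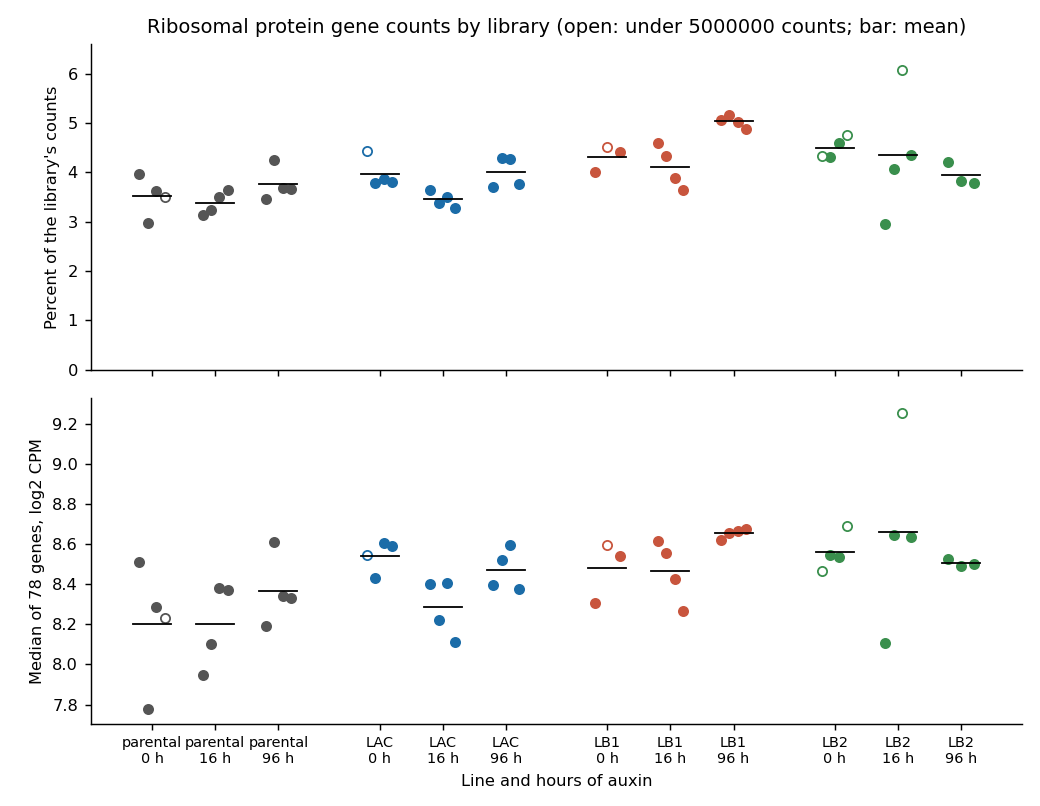
Each library's percentage of counts in the members (upper panel) and median log2 CPM of the members (lower panel), by line and hours of auxin; bars are group means. The parental mean is the lowest at 0 h though its libraries overlap those of LAC, LB1 libraries at 96 h lie close together between 4.87 and 5.16%, and replicate 3 of LB2 at 16 h stands above its group at 6.07%.

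Before auxin, most ribosomal protein messages had estimates above those of parental cells in each tagged line, and more of them passed the test in LAC and LB2 than in LB1. The order of these counts turned in a fit to the compared groups alone, where 7 (LAC), 29 (LB1) and 9 (LB2) were called, and differences between the tagged lines were not tested. The question here is what differs between the lines with the degron tag in place and no auxin added. In LAC, 22 of the 78 tested members were called higher and 0 lower (edgeR quasi-likelihood test, adjusted p under 0.05), while 15.8% of all 21484 genes tested were called and 8.71% were called higher. In LB2, 25 were called higher and 0 lower, against 8.21% of all genes called and 3.91% called higher. In LB1, 3 were called higher and 0 lower, against 4.05% and 1.62% of all genes. The 3 comparisons use the same 4 parental libraries at 0 h, so they are not independent of each other.

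Over the tested members the estimates leaned upward in each line. For the 78, the median log2 difference of LAC was 0.38 (all genes -0.06), that of LB1 0.33 (all genes -0.03) and that of LB2 0.41 (all genes -0.03). It was positive for 69, 75 and 74 members respectively. In each line 24 members had every tagged library above every parental library, while 8.42%, 7.55% and 4.44% of all genes did so (LAC, LB1, LB2). In LB1 30 members had an unadjusted p under 0.05, beside 39 in LAC and 46 in LB2. Over all 21484 genes the numbers were 3109 in LB1, 6301 in LAC and 4548 in LB2. The counts of calls moved with single parental libraries. Without replicate 2 of the parental 0 h group, whose members were lowest, the called members numbered 14 (LAC), 1 (LB1) and 13 (LB2), and without replicate 4 the counts were 13, 0 and 12. LB1 also had 7 without parental replicate 1, and 0 without its own replicate 2 or its own replicate 3, and LB2 had 14 without its own replicate 4. Scaling by library size alone left 6 higher and 2 lower in LAC (RPS27L and RPL39), 1 higher in LB1 and 14 higher in LB2, with median differences of 0.19, 0.30 and 0.34. Under it the all-gene median of LAC went from -0.06 to -0.24, and the share of its calls that were higher from 55.1% to 23.8%, and in LB2 that share went from 47.6% to 33.1%.

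**Figure D3:**
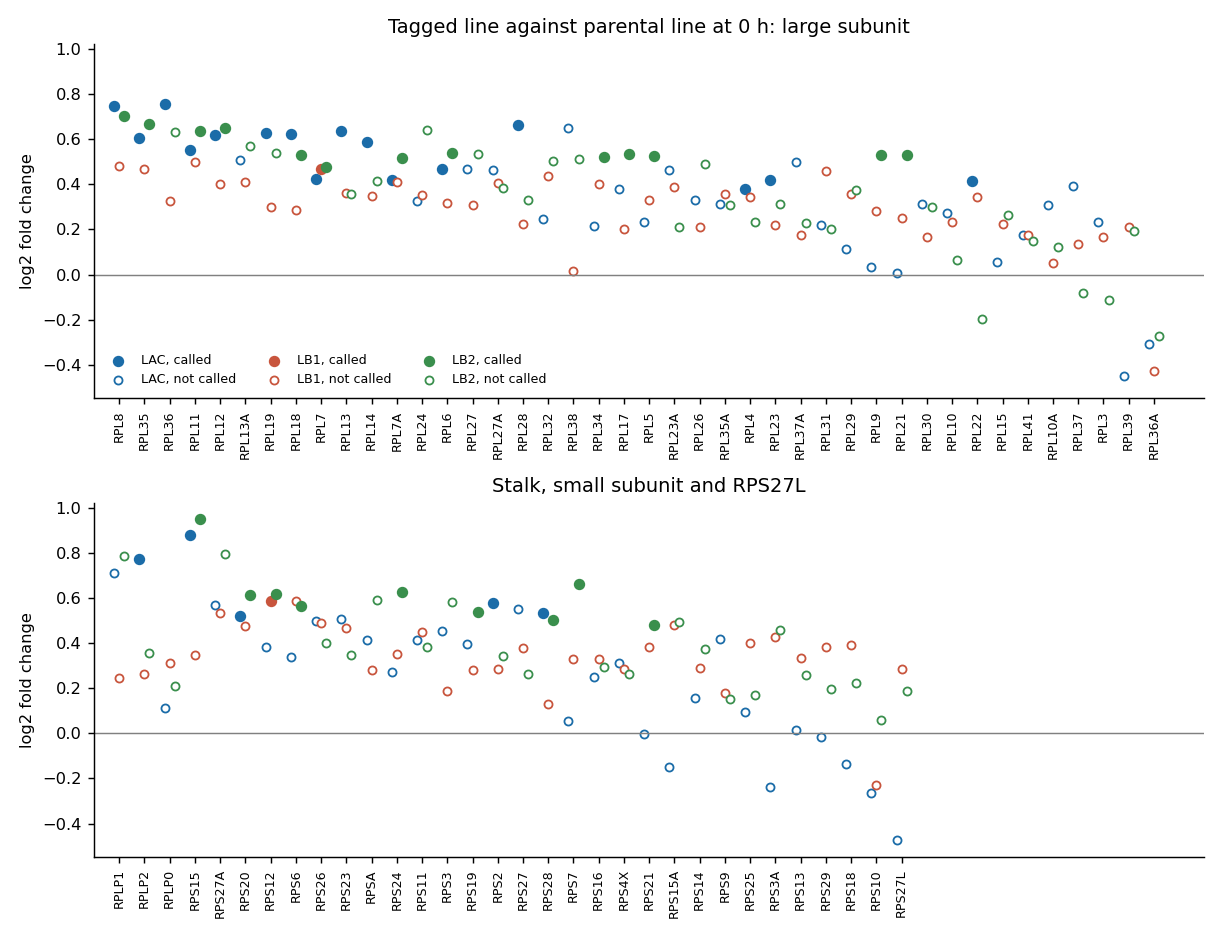
Log2 difference of 74 tested members between a tagged line and parental cells at 0 h, by role, with called members filled and those not called open; the grey line is at 0. Most members lie above 0 in LAC, LB1 and LB2, and no filled point lies below it.

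Among large subunit genes, 17 of 43 were called higher in LAC, 14 in LB2 and 1 in LB1. RPL8, whose protein lies close to the peptidyl transferase centre, had 640, 526, 617 and 570 CPM in the parental libraries. Its LAC values were 1125, 905, 984 and 936, those of LB1 740, 927 and 802 and those of LB2 980, 941, 878 and 1039. Every tagged library was above every parental one. The log2 difference was 0.75 ± 0.14 (SE) in LAC (edgeR adjusted p = 0.000219) and 0.705 ± 0.14 in LB2 (edgeR adjusted p = 0.000629), and both were called under each alternative setting run.

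RPL28, a large subunit protein that budding yeast lacks, had 346, 309, 340 and 324 CPM in parental cells and 479, 539, 545 and 524 in LAC, with no overlap, a log2 difference of 0.66 ± 0.14 (edgeR adjusted p = 0.000667). RPL14, another protein of the large subunit, had 159, 144, 165 and 141 CPM in parental cells and 227, 190, 254 and 245 in LAC, also without overlap, a difference of 0.59 ± 0.145 (edgeR adjusted p = 0.00356). Both calls held under every alternative run. RPL36 had the highest large subunit difference in LAC, 0.76 ± 0.21 (edgeR adjusted p = 0.0102), but its libraries overlapped, since replicate 2 was the lowest of both groups (93.4 CPM in parental cells, 146 in LAC). RPL36 was no longer called once the trend of counts with GC and length was taken out (log2 0.39, edgeR adjusted p = 0.0683).

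RPL7, a large subunit protein, was called in all 3 lines. Parental libraries had 406, 362, 440 and 403 CPM, LAC 532, 547, 521 and 559, LB1 526, 607 and 542, and LB2 512, 562, 565 and 600. The log2 differences came to 0.42 ± 0.12 (edgeR adjusted p = 0.0117), 0.47 ± 0.13 (0.0238) and 0.48 ± 0.12 (0.00765). Parental libraries were below all the others. The LAC call ended with scaling by library size alone (0.24, edgeR adjusted p = 0.162) and the LB2 call with the trend of GC and length removed (0.30, 0.0543). The LB1 call ended without parental replicate 2 or 4 or without LB1 replicate 2 (0.43, 0.132) or 3, and no call held without the low-count filter.

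RPL35, which binds near the tunnel exit, had 190, 117, 163 and 128 CPM in parental cells, 253, 181, 265 and 214 in LAC, and 247, 227, 223 and 256 in LB2. LB2 lay above the parental range and LAC overlapped it. The differences of 0.60 ± 0.21 in LAC (edgeR adjusted p = 0.0452) and 0.67 ± 0.21 in LB2 (0.0414) were close to the threshold, and both calls ended with RLE scaling (0.0828 and 0.0538) and without parental replicate 2, 3 or 4.

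Both protein genes of the 5S particle were called higher in LB2, and RPL11 also in LAC. RPL11 had 139, 125, 160 and 144 CPM in parental cells, 200, 174, 238 and 220 in LAC, and 173, 200, 250 and 256 in LB2. No library of LAC or LB2 overlapped the parental range, and the log2 differences were 0.55 ± 0.18 (edgeR adjusted p = 0.0284) and 0.64 ± 0.18 (0.0185). The LAC call ended with RLE or library size scaling and without parental replicate 2 or 4 or LAC replicate 3, and the LB2 call without parental replicate 2 or LB2 replicate 3 or 4. RPL5 was called in LB2, 0.53 ± 0.12 (edgeR adjusted p = 0.00317), and not in LAC, 0.235 ± 0.12 (0.188). In LB1 the values were 0.50 ± 0.19 for RPL11 (edgeR adjusted p = 0.172) and 0.33 ± 0.13 for RPL5 (0.177).

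Several large subunit genes with well known roles were called in no line or in 1. RPL3, which lines the catalytic centre, differed by 0.235 ± 0.12, 0.17 ± 0.13 and -0.11 ± 0.12 in LAC, LB1 and LB2 and was not called. RPL10, which closes the assembly of the large subunit, differed by 0.27 ± 0.15, 0.23 ± 0.16 and 0.06 ± 0.15 and was not called either. RPL22, which has the close paralog RPL22L1, was called higher in LAC (0.42 ± 0.13, edgeR adjusted p = 0.02), with 0.35 ± 0.14 in LB1 and -0.20 ± 0.13 in LB2. RPL39, a very small protein at the exit tunnel, was 1 of the few below 0 in LAC, at -0.45 ± 0.20 (edgeR adjusted p = 0.121), and RPL41, the smallest of all, differed by 0.175 ± 0.25, 0.175 ± 0.27 and 0.15 ± 0.25.

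Among small subunit genes, 4 of 31 were called higher in LAC, 11 in LB2 and 2 in LB1. RPS2 had 2526, 2158, 2720 and 2484 CPM in parental cells and 3643, 3716, 3705 and 3675 in LAC. The 4 LAC libraries lay close together and above the parental range, with a log2 difference of 0.58 ± 0.115 (edgeR adjusted p = 0.000381) that stayed called in each alternative run. In LB2 the strongest was RPS15, a protein of the small subunit head, with 478, 283, 351 and 402 CPM in parental cells and 945, 661, 614 and 710 in LB2. The groups did not overlap, and the difference was 0.95 ± 0.21 (edgeR adjusted p = 0.00216), called under every alternative run. In LAC the same gene had 1143, 608, 473 and 565 CPM. Its difference there was 0.88 ± 0.21 (edgeR adjusted p = 0.00284), with 1 LAC library just below the highest parental one. Replicate 1 of LAC and replicate 1 of LB2, the highest of their groups for RPS15, both held under 5000000 counts.

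RPS12, which lies at the beak of the small subunit, was called in LB1 (0.585 ± 0.165, edgeR adjusted p = 0.0268) and LB2 (0.62 ± 0.15, 0.00620). Parental libraries had 282, 195, 237 and 208 CPM, LB1 292, 388 and 360, and LB2 277, 329, 376 and 430, of which only LB2 replicate 1 fell inside the parental range. The LB1 call ended without parental replicate 2, 3 or 4, without LB1 replicate 2 or 3, and without the libraries under 5000000 counts. RPS6 had 682, 415, 702 and 573 CPM in parental cells and 779, 771, 984 and 970 in LB2, without overlap, a difference of 0.56 ± 0.18 (edgeR adjusted p = 0.0380). The call ended with trend removal (0.41, edgeR adjusted p = 0.118), with library size scaling (0.50, 0.0799), without the libraries under 5000000 counts (0.063), and without parental replicate 2 or 4 or LB2 replicate 3 or 4. In LB1 RPS6 had the highest estimate of the 78, 0.585 ± 0.19, and did not pass (edgeR adjusted p = 0.0726). RPS7, another MDM2 binder, and RPS24 were called in LB2 at 0.66 ± 0.16 (edgeR adjusted p = 0.00378) and 0.625 ± 0.17 (0.0123). RPS19, the gene most often mutated in Diamond-Blackfan anaemia, was called in LB2, 0.54 ± 0.17 (edgeR adjusted p = 0.0357), and lost the call without parental replicate 2, 3 or 4 or LB2 replicate 1 or 2. RPS14, the gene of the 5q- syndrome, was not called in any line (0.155 ± 0.23, 0.29 ± 0.24 and 0.38 ± 0.23).

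The stalk recruits elongation factors to the ribosome. RPLP2 was called in LAC at 0.77 ± 0.24 (edgeR adjusted p = 0.0204), with 298, 188, 273 and 254 CPM in parental cells and 646, 276, 409 and 403 in LAC. Replicate 1 of LAC was high, replicate 2 overlapped the parental range, and without replicate 1 the call was lost (log2 0.55, edgeR adjusted p = 0.0995). For RPLP1 the LAC value was 0.71 ± 0.28 (edgeR adjusted p = 0.0771) and the LB2 value 0.79 ± 0.28 (0.0755). RPLP0 differed by 0.11 ± 0.11, 0.31 ± 0.12 and 0.21 ± 0.115 and was not called. The paralog RPS27L lay below 0 in LAC, -0.475 ± 0.18 (edgeR adjusted p = 0.0639), and was called lower there with RLE scaling and with DESeq2.

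The 0 h differences can also be read by the sequence at the start. Of the tested members with a window, the median log2 difference was 0.36 in LAC with a run (n = 50, 13 called higher) and 0.38 without (n = 13, 3 called higher). In LB1 it was 0.33 with a run (1 called) and 0.31 without (0 called), and in LB2 0.44 (14 called) and 0.40 (4 called). RPS15, the largest difference in LB2, has no run that begins within 5 bases of the annotated start. Its printed window ends in a C followed by further C and T, farther from that start.

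A trend with GC content or transcript length can differ between libraries and move short transcripts together. The representative transcripts of the core members were short, with a median of 1004 bases against 2729 for 19830 protein-coding genes, and of ordinary GC content, 49.5% against 49.8%. Some were long beside their coding sequence: RPL37 had 7686 and 291 bases, RPL14 7072 and 645, and RPL28 4796 and 411. The trend at a member was read at this length, and its dependence on the transcript chosen was not tested. Over 11381 genes (a description, since genes are no replicates) the LAC difference at 0 h had Spearman's rho 0.41 with GC, and the LB2 difference had rho -0.33 with length and -0.02 with GC. The LB1 difference had rho -0.19 with GC. Over the 78 members alone, rho of the difference with GC was 0.28 (LAC), -0.02 (LB1) and 0.12 (LB2). The fitted trend at the members had a median of 0.05 (LAC), 0.08 (LB1) and 0.19 (LB2). By member it ran from -0.20 to 0.40 in LAC, from -0.03 to 0.18 in LB1 and from -0.15 to 0.34 in LB2. Once it was removed, rho with GC or length was within 0.03 of 0 in each 0 h comparison, and the members' medians became 0.34, 0.25 and 0.30 (LAC, LB1, LB2) and 27, 11 and 20 of them were called higher. After removal 21.2%, 7.75% and 13.9% of all genes were called. So LB1 went from 3 to 11 calls, and the LB2 median lost more than the others.

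**Figure D4:**
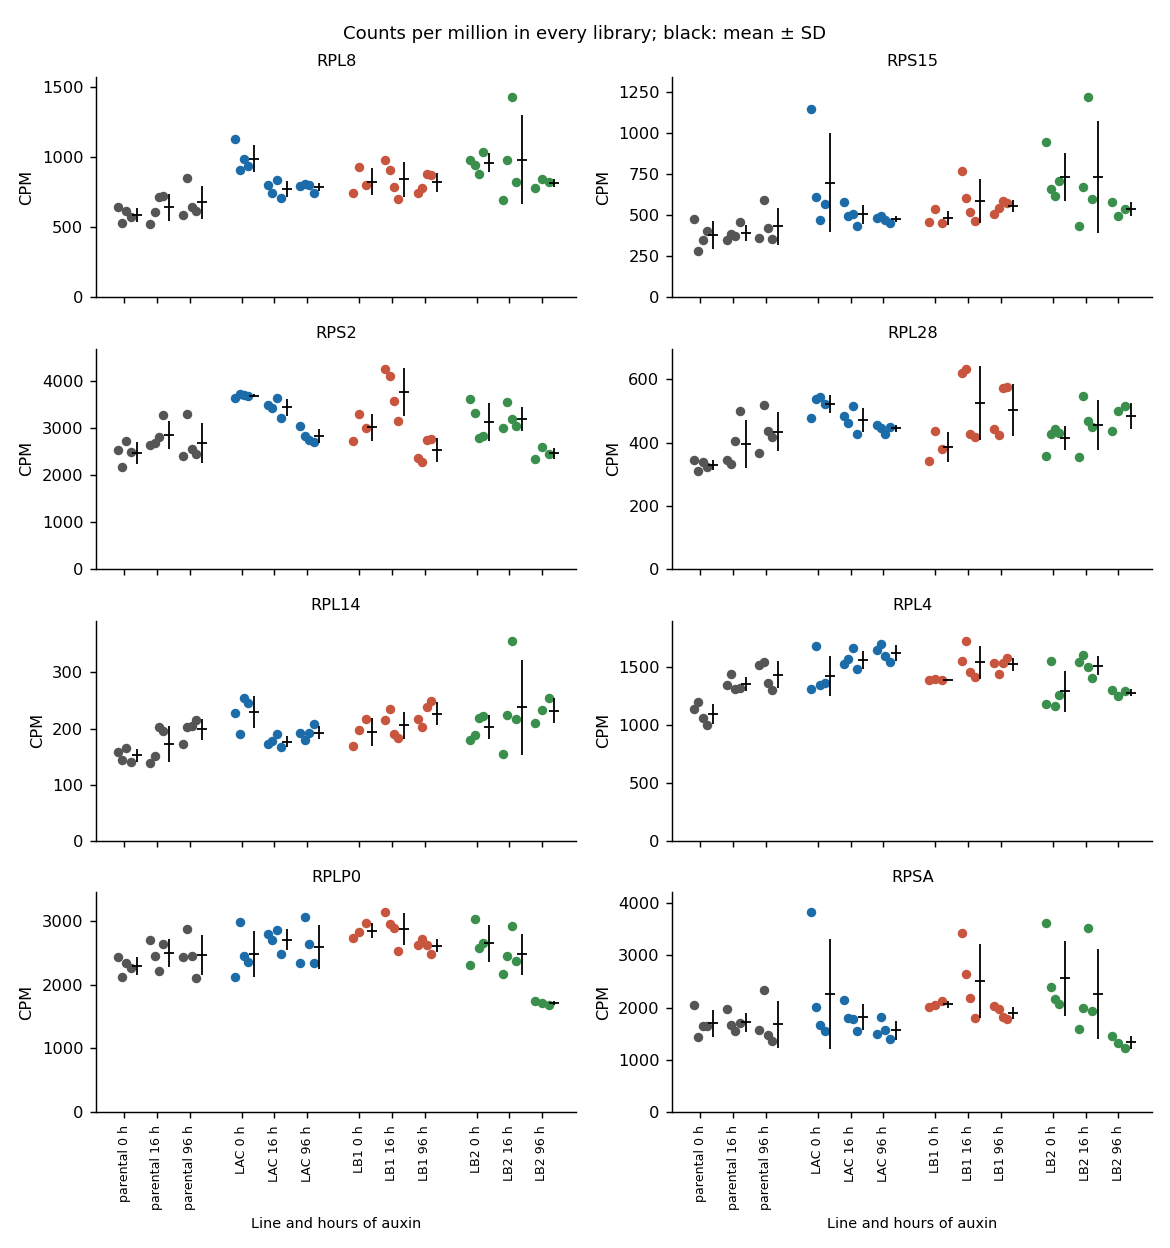
CPM of selected members in each library, by line and hours of auxin; black marks are group means ± SD and the axes start at 0. Among the 0 h libraries RPL8 is lowest in the 4 parental ones, RPS2 in LAC at 0 h lies between 3643 and 3716, RPLP0 is lowest in LB2 at 96 h (1680 to 1738), and single libraries stand high for RPSA and RPS15.

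Untagged cells given auxin show the changes that come without a degron. Since vehicle at 0 h is not stated, auxin, DMSO and time in culture cannot be told apart. At 16 h the parental line had 1 member called higher, RPL4, and 1 called lower, RPS10, against 9.01% of all genes called. RPL4, a large subunit protein that lines the exit tunnel, went from 1134, 1195, 1061 and 999 CPM to 1344, 1437, 1315 and 1321, without overlap. Its log2 rise was 0.30 ± 0.10 (edgeR adjusted p = 0.0486). RPS10, whose level is uncertain because of the readthrough model, fell by 0.59 ± 0.19 (edgeR adjusted p = 0.0445). Both calls are close to the threshold and ended under most alternatives: without any 1 of the 8 libraries but parental 0 h replicate 2, the count of members called was 0, and without that replicate it was 1.

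At 96 h the parental line had 2 members called higher and 0 lower, against 7.78% of all genes called and 3.94% called higher. RPL4 stood at 1522, 1548, 1366 and 1305 CPM, above every 0 h library, a rise of 0.39 ± 0.10 (edgeR adjusted p = 0.0116). The median change of the 78 was 0.21 (all genes -0.03), and 73 were above 0. Members with an unadjusted p under 0.05 numbered 15 (all genes 4981 of 21484). The count was 0 without parental 0 h replicate 4, 1 without 0 h replicate 3, 96 h replicate 2 or 96 h replicate 3, 5 without 0 h replicate 1 and 4 without 96 h replicate 1. It was 13 without the libraries under 5000000 counts. After removal of the GC and length trend it was 9, where 14.7% of all genes were called.

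In LAC at 16 h most estimates lay below 0 and none passed the test. Of the 78 members 0 were called by edgeR at 16 h, where 1.78% of all genes were called. An unadjusted edgeR p under 0.05 was found for 18 members and for 4296 of all 21484 genes. DESeq2 called 4 members and 5.81% of all genes. The median was -0.21 (all genes -0.02), and 15 members were above 0. RPLP1 and RPLP2 had estimates of -0.57 ± 0.28 and -0.56 ± 0.24. Without LAC 0 h replicate 2, 4 members were called by edgeR. In this comparison the change of all genes had Spearman's rho -0.67 with GC (11381 genes), and after removal of that trend the members' median was -0.13 with 2 called lower.

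At 96 h LAC had 4 members called higher and 1 lower, against 15.4% of all genes. RPL39 went from 54.7, 64.3, 88.3 and 78.9 CPM to 92.4, 114, 135 and 114, a rise of 0.66 ± 0.20 (edgeR adjusted p = 0.0164) with no overlap. RPS15A, a small subunit protein, rose by 0.60 ± 0.21 (edgeR adjusted p = 0.0395), and RPS3A, near the mRNA exit, by 0.43 ± 0.15 (0.0476), with overlap in both. RPS27L went from 9.71, 14.2, 12.1 and 13.0 CPM to 15.0, 16.7, 21.6 and 17.3, a rise of 0.49 ± 0.17 (edgeR adjusted p = 0.0454).

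RPS2 was the member that fell in LAC at 96 h, and the log2 change was -0.38 ± 0.115 (edgeR adjusted p = 0.0182). It had 3043, 2835, 2741 and 2710 CPM, all below the LAC 0 h libraries, and 3 of the 4 lay above every parental 0 h library. After removal of the GC and length trend the RPS2 change was -0.07 (edgeR adjusted p = 0.731). RPS27L was likewise no longer called after that removal (log2 0.37, edgeR adjusted p = 0.160). The trend was steep here, with rho -0.60 between change and GC over 11381 genes. The count of 5 became 12 without LAC 0 h replicate 2, 1 without 0 h replicate 1, 2 without 96 h replicate 2 or 96 h replicate 4, and 0 without 96 h replicate 3. The median of the 78 was -0.10 (all genes 0.03), and 0.02 when libraries were scaled by size alone, where the median of all genes was 0.15.

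LB1 had few calls at either time. At 16 h 1 member was called lower and 0 higher, against 1.5% of all genes called and 0.517% called lower. This was RPL39, which went from 86.7, 121 and 134 CPM to 60.1, 42.2, 82.1 and 71.0 without overlap and fell by 0.83 ± 0.215 (edgeR adjusted p = 0.0346). It was no longer called without LB1 0 h replicate 2 or 3 or 16 h replicate 1 or 2, and 2 members were called without 16 h replicate 4. At 96 h RPL39 stood at 87.7, 101, 125 and 110 CPM, near its 0 h values (-0.10 ± 0.21).

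At 96 h 2 members were called higher in LB1 and 0 lower, against 3.17% of all genes called and 1.05% called higher. RPS28, a very short protein at the mRNA exit, went from 318, 230 and 240 CPM to 388, 395, 401 and 378, a rise of 0.57 ± 0.16 (edgeR adjusted p = 0.0382) with no overlap. RPL36A, whose level is uncertain because of its readthrough model, rose by 0.76 ± 0.22 (edgeR adjusted p = 0.0404). The median of the 78 was 0.19 (all genes 0.04), 63 were above 0, and 26 had all 96 h libraries above all 0 h libraries, where 9.9% of all genes did. The count of 2 became 0 without 0 h replicate 3, 96 h replicate 1 or 96 h replicate 2, 1 without 0 h replicate 1, 0 h replicate 2 or 96 h replicate 3, and 4 without 96 h replicate 4. The share of counts from the mitochondrial genome was 2.1 to 3.18% in these 4 libraries and 1.51 to 1.6% at 0 h, and its part in the result was not tested.

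LB2 at 16 h had 0 members called by edgeR, where 1.81% of all genes were called. An unadjusted edgeR p under 0.05 was found for 8 members and for 3563 of all 21484 genes. DESeq2 called 0 members and 2.87% of all genes. The median change was 0.06 (all genes -0.02). It was -0.155 without the shallow replicate 3, and then 1 member was called.

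At 96 h LB2 had 3 members called lower and 0 higher, against 3.55% of all genes called and 1.6% called lower. RPLP0 (chr12:120196699-120201235, GRCh38, - strand) had 2313, 3024, 2577 and 2657 CPM at 0 h and 1738, 1713 and 1680 at 96 h. The 3 libraries at 96 h were the lowest of all 46 for this gene, and the log2 change was -0.63 ± 0.125 (edgeR adjusted p = 0.00121). The call ended when no genes were filtered out (-0.59, edgeR adjusted p = 0.0749) and in a fit to the LB2 groups alone (-0.63, 0.134). RPL9, at the base of the stalk, had 653, 815, 888 and 888 CPM at 0 h and 618, 540 and 514 at 96 h, and fell by 0.54 ± 0.14 (edgeR adjusted p = 0.0175).

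RPSA had 3607, 2398, 2157 and 2077 CPM in LB2 at 0 h and 1465, 1320 and 1227 at 96 h, and fell by 0.94 ± 0.23 (edgeR adjusted p = 0.0121). The groups did not overlap, but replicate 1 at 0 h, with 1894447 counts in all, stood well above the other wells, and without it the change was -0.72 (edgeR adjusted p = 0.0565). RPSA was also high in single wells elsewhere: 3817 CPM in LAC 0 h replicate 1 (the other 3 at 1560 to 2006), 3524 in LB2 16 h replicate 3 (the others at 1594 to 1997) and 3434 in LB1 16 h replicate 1 (the others at 1804 to 2634). Of these 4 high wells 3 had under 5000000 counts, and the part of depth was not tested.

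The median of the 78 in LB2 at 96 h was -0.10 (all genes -0.002) and -0.001 with the trend removed. The count of 3 was 5 without 0 h replicate 1, 1 without 96 h replicate 2 or 96 h replicate 3, and 8 without the libraries under 5000000 counts. RPS19 had -0.59 ± 0.18 (edgeR adjusted p = 0.0593) and RPS3 -0.61 ± 0.23 (0.134).

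**Figure D5:**
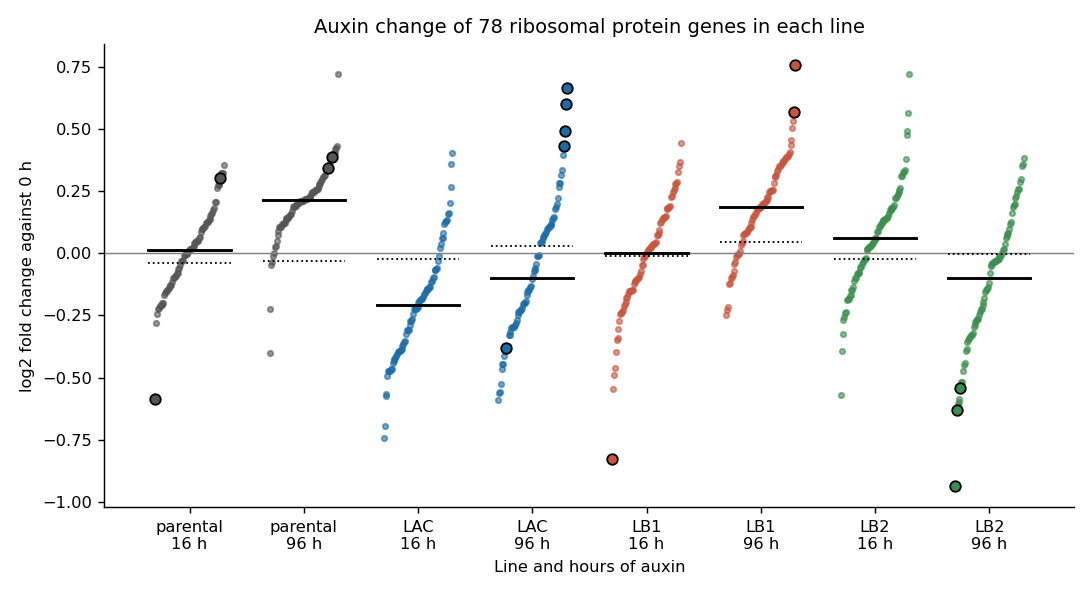
Log2 change of each tested member after 16 and 96 h of auxin in each line, with called members filled and the median of the members and of all genes drawn as lines. Values cluster above 0 in parental cells and LB1 at 96 h (medians 0.21 and 0.19) and below 0 in LAC at 16 h (-0.21), and few members are called in any panel.

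Subtracting the parental change leaves what a tagged line's change had beyond that of untagged cells. At 16 h no member was called by edgeR in the difference for LAC, LB1 or LB2. Of all genes 0.116%, 0.0279% and 0.00465% were called. An unadjusted p under 0.05 was found for 9, 2 and 4 members and for 2651, 1340 and 1195 of all 21484 genes. DESeq2 called 0 members in each, against 1.05%, 0.14% and 0.00931% of all genes. At 96 h the difference was called lower for 3 members in LAC (7.4% of all genes called, 4.3% lower). It was called for 0 in LB1 (1.04%) and called lower for 2 in LB2 (0.368%, and 0.0977% lower). In LB1 5 members and 3570 of all 21484 genes had an unadjusted p under 0.05. DESeq2 called 0 members there, against 2.28% of all genes.

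The 3 members in LAC were RPL14, RPL28 and RPS2, each also called higher in LAC than in parental cells at 0 h, and both results use the same 0 h libraries. RPL28 moved from 309 to 346 CPM at 0 h to 369, 518, 435 and 418 at 96 h in parental cells, and from 479 to 545 CPM down to 456, 447, 429 and 449 in LAC, a difference of -0.63 ± 0.195 (edgeR adjusted p = 0.0381). With RLE scaling or library size alone no member was called lower, 1 was called higher (RPS27L, 0.80 and 0.94, edgeR adjusted p = 0.0413 and 0.0202), and the members' median went from -0.30 to -0.24 and -0.08, with all genes at 0.06, 0.13 and 0.27. For RPL14 the difference was -0.63 ± 0.20 (edgeR adjusted p = 0.0468), and for RPS2 it was -0.495 ± 0.16 (0.04996). RPL28 was, after removal of the GC and length trend, no longer called (-0.285, edgeR adjusted p = 0.377). The count was 0 without parental 0 h replicate 4, parental 96 h replicate 2 or 3, LAC 0 h replicate 3 or LAC 96 h replicate 2, 3 or 4. It was 1 without parental 0 h replicate 2 and 6 without LAC 0 h replicate 2. RPS27L was called higher in this difference also with DESeq2 (0.80, DESeq2 adjusted p = 0.0275) and voom (0.74, voom adjusted p = 0.0209). The same held with a replicate block (0.72, edgeR adjusted p = 0.0332) and without LAC 0 h replicate 2 (0.77, 0.0489). Each of those counts therefore includes a higher call.

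In LB2 the 2 were RPLP0 and RPS12. RPLP0 had 2117 to 2437 CPM at 0 h and 2105 to 2872 at 96 h in parental cells, so the difference of -0.73 ± 0.17 (edgeR adjusted p = 0.0378) came with the drop in LB2 described above. RPS12 had 255, 353, 299 and 310 CPM at 96 h in parental cells and 283, 241 and 218 in LB2, a difference of -0.92 ± 0.23 (edgeR adjusted p = 0.0494). Both were above 0 at 0 h in LB2, and the 2 results share those libraries. The median difference was -0.34 with 10 members above 0 and 28 at an unadjusted p under 0.05, beside 2726 of all 21484 genes. It was -0.18 (21 above 0, 13 at that p, beside 2914 of all genes) with library size alone. With the trend removed it was -0.21 (18 and 16, beside 3459 of 20450 genes). The count was 0 without any 1 of parental 0 h replicates 2, 3 and 4, parental 96 h replicates 2 and 3, LB2 0 h replicates 2 and 4 or the 3 LB2 libraries at 96 h, 1 without parental 96 h replicate 4 or LB2 0 h replicate 3, and 3 without LB2 0 h replicate 1.

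Genes that serve the ribosome without being part of it were read beside the members. These lists were written from general knowledge, and their values come from the main fit, without removal of the GC and length trend. Over 11381 genes the change had Spearman's rho 0.41 with GC in LAC at 0 h and -0.60 in LAC at 96 h. It had rho -0.55 with GC in the difference between LAC and parental changes at 96 h, and -0.33 with length in LB2 at 0 h. The part of this trend in the lists was not tested. Of 30 ribosome assembly factors, 21 were called higher in LAC than in parental cells before auxin and 0 lower (all genes 8.71% higher), among them RRS1 (1.265, edgeR adjusted p = 0.00016), PES1 (1.17, 5.71e-05) and NCL, nucleolin (1.15, 1.55e-05). The median of LAC was 0.52, that of LB1 0.05 (1 called higher, all genes 1.62%) and that of LB2 0.43 (10 called higher, all genes 3.91%). On auxin, 10 of the 30 rose in parental cells at 16 h (9.01% of all genes called in either direction) and 13 at 96 h (3.94% of all genes higher), with 0 lower, including UTP20 (0.66, edgeR adjusted p = 0.00165) and RRP12 (0.615, 0.0142). LB1 had 8 called higher at 16 h (1.5% of all genes called) and 2 at 96 h (3.17%). LB2 had 1 called higher at 16 h (1.81%) and 1 at 96 h (3.55%). LAC had 0 called at 16 h (1.78%) and 6 called lower at 96 h (15.4%). In the difference between LAC and parental cells at 96 h 13 were called lower (all genes 4.3%), led by BOP1 (-1.43, edgeR adjusted p = 0.0169), and 0 were in LB1 or LB2.

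RNA polymerase I, which makes ribosomal RNA, had 4 of 15 tested genes up in parental cells at 16 h and 6 at 96 h, with 0 down. Of all genes 9.01% were called there at 16 h in either direction, and 3.94% were called higher at 96 h. In LAC at 0 h 5 were called higher (all genes 8.71%), such as POLR1E (0.81, edgeR adjusted p = 1.29e-05), and TAF1D was called lower (-0.61, 0.00275). Of 17 translation factors whose messages also begin with a TOP tract, 6 were called higher in LAC at 0 h (all genes 8.71%). They were led by EEF2 (0.79, edgeR adjusted p = 5.77e-05), which moves the ribosome along the message. LB2 had 3 called higher (all genes 3.91%) and LB1 had 1 (all genes 1.62%). EEF2 fell in LAC at 96 h by 0.65 (edgeR adjusted p = 0.000789). Of 77 tested genes of the mitochondrial ribosome, 15 were higher and 1 lower in LAC at 0 h, 22 and 0 in LB2 and 1 and 1 in LB1, with medians of 0.26, 0.43 and 0.20. Of all genes 8.71% were higher in LAC, 3.91% in LB2 and 1.62% in LB1, so the LB1 count is no more than the background.

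MYC, among 12 regulators of TOP translation and ribosome production, was called higher in both LAC (0.87, edgeR adjusted p = 1.08e-06) and LB2 (0.57, 0.00119) without auxin. It rose at 16 h in parental cells by 0.84 (edgeR adjusted p = 1.08e-05), in LB1 by 0.78 (0.000499) and in LB2 by 0.66 (0.00102). At 96 h the rises in these lines were 1.05 (edgeR adjusted p = 3.79e-08), 0.83 (2.39e-05) and 0.94 (1.93e-06). In the difference between LAC and parental changes MYC was called lower at 16 h (-0.75, edgeR adjusted p = 0.0422) and at 96 h (-0.77, 0.00443). LARP1, which binds TOP messages, was higher in LAC (0.60, edgeR adjusted p = 0.00601) and lower in LB2 (-0.90, 9.59e-05) at 0 h. Of 6 p53 targets, CDKN1A was lower at 0 h in all 3 tagged lines (-1.15, -0.66 and -1.315, edgeR adjusted p of 1e-05, 0.0406 and 1.12e-06) and fell by 1.13 in parental cells at 96 h (2.66e-05). In the same list MDM2 was called higher at 16 h in parental cells, LAC, LB1 and LB2 (0.37, 0.41, 0.515 and 0.55, edgeR adjusted p of 0.0256, 0.0367, 0.0176 and 0.00402), and TP53INP1 (1.28, 0.0421) and ZMAT3 (0.55, 0.0172) rose in LAC at 96 h. Of the 5 ribosomal proteins with names outside the rule, RPL26L1 was called higher in LB2 without auxin (0.93, edgeR adjusted p = 0.00406).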

How the data were processed

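Gene counts of 46 libraries were analysed. Per the labels' protocols, stranded total RNA libraries depleted of ribosomal RNA (Illumina, Ribo-Zero Plus) were sequenced in pairs. The file the authors deposited holds raw counts of all libraries, made with featureCounts 1.6.4 from the environment of nf-core/rnaseq 1.4.2, per the file headers. The submitters' processing notes list STAR 2.7.10a, SAMtools 1.10, featureCounts 1.6.4, deepTools 3.4.5, DESeq2 1.40.2 and GRCh38. Strand setting, treatment of multi-mapping reads and annotation release are not given in the sources used here, so counts of members with overlapping or antisense genes or near-identical pseudogenes are uncertain. All 46 count columns were matched to their libraries by name, and 1 gene broken over 3 lines was left out.

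The main test was edgeR 4.0.16's quasi-likelihood test (R 4.3.3): a single fit of 12 groups, TMM scaling, the filterByExpr filter (21484 genes left), 17 two-sided comparisons, Benjamini-Hochberg adjustment over all genes tested, and a call at an adjusted p under 0.05. Errors of log2 changes are standard errors of the fit. Within a group, the 66 pairs of replicates differed by at least 3.65 in chi-square per degree of freedom, so no library was counted as a copy of another. Lengths, GC content, coding sequences and overlaps came from GENCODE 29, which holds 92.9% of the genes. Per-library trends with GC and length were fitted by loess (span 0.3) on 11086 genes with a mean log2 CPM above 2, without the members, and removed through offsets. The scripts were tested on simulated data.

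The alternatives were DESeq2 1.42.0, RLE and library size scaling, no filter, trend removal, the compared groups alone, a replicate block, voom weights (limma 3.58.1), no libraries under 5000000 counts, and leaving out each replicate. Replicate numbers come from the labels, which do not say what they share. Named genes were 26 members with well known roles, in each comparison the 3 highest and 3 lowest called, the extremes of level, and up to 3 called genes per direction from each list of related genes; some others are named where a count or an extreme falls on them, chosen after their values were seen. The members and lists were chosen with earlier results of these data known. The results of some members are not reported here, and figures that name members leave them out. No explanation was tested.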

Additional observations from a re-analysis of the deposited data

Results flagged for a closer look

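Among 200 groups of 4 libraries checked for 1 library far from the other 3, 7 stood out. Chance flags about 1 group in 20, so 7 of 200 is no more than chance gives. Replicate 1 of LAC at 0 h had 4.43% of its counts in the members (95% Wilson interval 4.406 to 4.45%), above the other 3. By gene, RPL36A was high in parental 96 h replicate 3 (10.3 CPM). RPL4 was high in LAC 0 h replicate 2 (1683 CPM), RPS2 in parental 96 h replicate 2 (3302 CPM), and RPS27L in LAC 16 h replicate 3 (20.6 CPM). RPS15A was low in LB2 0 h replicate 1 (147 CPM), and RPS28 was high in LB2 16 h replicate 2 (455 CPM).

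The change at 96 h of auxin differed between a tagged line and the parental line for 5 members by edgeR's test of the difference itself: in LAC RPL14 (-0.630), RPL28 (-0.630) and RPS2 (-0.495), and in LB2 RPLP0 (-0.734) and RPS12 (-0.917), all on the log2 scale.

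The named pseudogenes of the members, for which no comparison is reported, held counts in every library. Any that passed the low-count filter were among all genes tested. The lowest share was 0.0886% of counts, in LB2 96 h replicate 3 (95% Wilson interval 0.08724 to 0.08999%), and there were 1.94 to 3.61 pseudogene counts per 100 member counts. Whether these reads come from pseudogene RNA or from members was not tested.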

How the results depend on the processing

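Counts of called members depended on the processing. Of 9032 alternative values of the 448 named gene results, 8480 kept their side of the threshold, 409 lost the call and 143 gained one. No value with a call changed sign, and 561 values with no call in either fit did. Of 347 alternative medians over the members, 10 moved by more than the replicate spread, and at 0 h the median ran from 0.194 to 0.455 in LAC, 0.246 to 0.405 in LB1 and 0.290 to 0.501 in LB2. Below, counts of members called stand in the order parental, LAC, LB1 and LB2, each at 16 h and then 96 h, then LAC, LB1 and LB2 against parental cells at 0 h, then LAC, LB1 and LB2 in the difference from the parental change at 96 h. The values reported above are 2, 2, 0, 5, 1, 2, 0, 3, then 22, 3, 25, then 3, 0, 2. DESeq2 gave 1, 1, 4, 7, 2, 5, 0, 7, then 18, 5, 31, then 3 (1 higher and 2 lower, against 3 lower above), 0, 3. Of all genes it called 9.91, 9.27, 5.81, 19.8, 2.86, 4.72, 2.87, 5.89, then 17.7, 4.82, 10.3, then 9.53, 2.28 and 1.01%. Removing the GC and length trend gave 1, 9, 2, 4, 2, 7, 2, 6, then 27, 11, 20, then 1, 2, 4. This removal called 13.9, 14.7, 1.77, 15.4, 5.84, 8.11, 3.68, 8.46, then 21.2, 7.75, 13.9, then 8.66, 3.86 and 2.52% of all genes. Fitting that trend with the members kept in gave 0, 8, 2, 4, 2, 6, 2, 6, then 27, 11, 20, then 1, 2, 4. RLE scaling gave 1, 1, 1, 6, 1, 2, 0, 3, then 16, 3, 25, then 1 (higher, against 3 lower above), 0, 1. Library size alone gave 1, 1, 1, 7, 1, 4, 0, 2, then 8, 1, 14, then 1 (also higher), 0, 0. Without the low-count filter the counts were 0, 1, 2, 4, 1, 0, 1, 1, then 27, 2, 33, then 2, 0, 2. Fitting only the compared groups, which rests each test on fewer libraries, gave 6, 13, 0, 1, 2, 15, 0, 0, then 7, 29, 9, then 3, 0, 0. Limma voom with quality weights gave 5, 12, 14, 16, 5, 11, 4, 21, then 35, 16, 41, then 8 (RPS27L among them, higher), 0, 15, and 1 for LAC in the difference at 16 h. Without the libraries under 5000000 counts they were 2, 13, 0, 2, 2, 2, 2, 8, then 24, 2, 25, then 4, 0, 5. Apart from the value given for voom, the differences at 16 h stayed at 0 in every alternative, and the causes of these moves were not tested.

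Leaving out 1 library at a time gave 0 to 1 and 0 to 5 in parental cells, 0 to 4 and 0 to 12 in LAC, 0 to 2 and 0 to 4 in LB1, and 0 to 1 and 1 to 5 in LB2. At 0 h it gave 13 to 29 in LAC, 0 to 7 in LB1 and 12 to 34 in LB2, and in the differences at 96 h 0 to 6 in LAC and 0 to 3 in LB2.

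With the replicate number as a block the counts were 1, 2, 1, 7, 2, 2, 0, 5, then 28, 5, 28, then 3 (RPS27L among them, higher), 0, 2. The labels do not say that a number marks a shared plate or day. Over 243 pairs of same-numbered libraries the mean correlation of deviations was 0.07 (-0.013 for other numbers). Single pairs ran from -0.711 to 0.845, 118 were above 0.1, and 25 of 46 libraries correlated best with their own number. The main fit has no term for the number, and whether a shared batch lies behind it was not tested. Some members, RPL23A above all, follow the number.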
